A study of Mus musculus with 4 samples.

Results

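The interferon regulatory factors described here are 9 genes, *Irf1*, *Irf2*, *Irf3*, *Irf4*, *Irf5*, *Irf7*, *Irf8*, *Irf9* and *Irf2bp2*, chosen by symbol and all found among the 55401 genes counted. RNA of B220+ cells sorted from spleen was sequenced in 4 libraries. The NSD1 B WT genotype (Mb1-Cre+ NSD1+/+, WT below) and the NSD1 B KO genotype (Mb1-Cre+ NSD1fl/fl, KO below) had 2 each. All mice were of the C57BL/6J strain, young adults with no treatment named, and carried Mb1-Cre, which is driven by the *Cd79a* locus and acts from early B cell stages, so the controls had the recombinase but no floxed allele of *Nsd1*, a histone H3 lysine methyltransferase gene. Whether same-genotype libraries were made from different mice or from pooled cells is not stated, and p-values measure only the spread between these libraries.

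Interferon regulatory factors (IRFs) share a DNA-binding domain that recognises repeats of the letters GAAA, found in interferon-stimulated response elements (ISRE). *Irf3*, *Irf5* and *Irf7* encode factors that wait in the cytoplasm until Toll-like receptors or nucleic acid sensors lead to their phosphorylation, and they then switch on interferon and cytokine genes. *Irf9* encodes the DNA-binding subunit of ISGF3, the complex that answers type I interferon. *Irf1* and *Irf2* encode an activator and a competing repressor, and *Irf2bp2* encodes a corepressor that binds IRF2. *Irf4* and *Irf8* are the lymphoid members, which bind DNA weakly alone and pair with PU.1, SpiB or BATF, and they steer germinal centre, plasma cell and marginal zone fates.

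The question put to the data was whether the levels of these genes differ between KO and WT. Counts on genes ranged from 6769118 to 7566834 per library, and levels are given in CPM, the count of a gene relative to the TMM-scaled library total, as edgeR gives it. A gene was called with an adjusted p below 0.05 from edgeR's quasi-likelihood test, adjusted by Benjamini-Hochberg over 11657 tested genes, and a fold change above 1.2. The targeted gene *Nsd1*, counted over the whole gene and not only its floxed exons, had 497 and 480 counts in WT and 284 and 280 in KO. All 9 B cell markers were counted, with a summed level, most of it *Cd74*, of 50300 to 50419 CPM in WT and 40620 to 41302 CPM in KO. Of these markers 7 were lower in KO, unequally, with *Cr2* at 42.5 and 37.8 CPM against 2.36 and 3.86, *Cd79a* at 2033 and 1939 against 809 and 767, and *Cd79b* not called, with a fold change under 1.2, at 6863 and 6771 against 8525 and 7774. Marker genes of other cells were counted as well, in cells that the paper describes as sorted to high purity. *Lyz2*, the lysozyme gene of myeloid cells, had 31771 to 42393 counts in each library and made up most of the 9 myeloid markers, which summed to 4564 to 4668 CPM in WT and 5728 to 6076 in KO. The myeloid markers went apart, 5 higher and 2 lower in KO, with *Csf1r* at 23 and 27 counts against 375 and 335, *Cd14* at 4 and 9 against 71 and 77, *Itgam* at 487 and 615 against 273 and 334, and *S100a8* at 39 and 28 against 0 and 0. The 6 erythroid markers summed to 35.5 to 39.6 CPM in WT and 1688 to 1942 in KO. The source of the RNA of these markers and its part in the values below were not tested. In bulk RNA, fewer cells of a type and less RNA per cell cannot be told apart.

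All 9 members passed the filter on low counts, with 64 to 753 counts in a library. In KO, 3 members were lower (*Irf1*, *Irf7*, *Irf9*), 2 were higher (*Irf2*, *Irf4*) and 4 were not called (*Irf3*, *Irf5*, *Irf8*, *Irf2bp2*). The 5 called members are 55.6% of the 9, and 78.2% of all tested genes were called, a higher share than among the IRFs. Lower calls made up 41.1% and higher calls 37.1% of all tested genes. With a trend of the counts with exon length and GC content removed, the balance turned, with 4816 genes higher and 4214 lower. In 7 members the libraries of the genotypes did not overlap, 4 with KO above and 3 with KO below. In this way 88.1% of all tested genes were apart, 41.8% with KO above and 46.2% with KO below. The changes were small beside those of all tested genes, which include genes with fewer counts and genes at 0 in a genotype. The median absolute log2 fold change was 0.30 over the members and 1.16 over all tested genes, and the signed medians were 0.12 and -0.10. The summed level of the members was 388 and 403 CPM in WT and 339 and 343 CPM in KO.

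**Figure D1:**
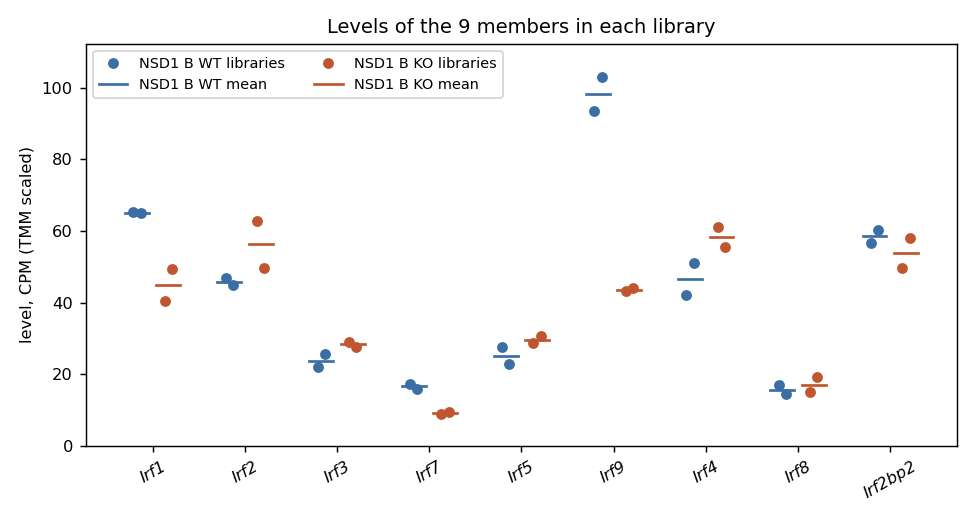
Level of each of the 9 members in every library, in CPM after TMM scaling. Points are libraries (2 per genotype) and lines are means. *Irf9* fell from 93.4 and 103 CPM to 43.3 and 43.9 CPM, while the points of *Irf8* and *Irf2bp2* overlap between the genotypes.

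The bases before the annotated starts are shown for the 3 lower members and for *Irf2* and *Irf8*, which held a motif match, since promoters of this family are known to carry binding sites for its own members and for STATs. All 9 members matched the RefSeq promoter windows (GRCm38.p6), with 12 windows of 250 bases between them, printed 5′ to 3′ on the strand of the gene. The RefSeq starts they end at can differ from the gene ends in GENCODE, as for *Irf9*, which has several starts. Both strands were searched for the ISRE core GAAANNGAAA, the GAS element TTCNNNGAA bound by STAT dimers, and the ETS-IRF composite GGAANNGAAA bound by PU.1 or SpiB with IRF4 or IRF8. Capitals mark the matches.

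*Irf1*, chr11:53769764-53770013, plus strand: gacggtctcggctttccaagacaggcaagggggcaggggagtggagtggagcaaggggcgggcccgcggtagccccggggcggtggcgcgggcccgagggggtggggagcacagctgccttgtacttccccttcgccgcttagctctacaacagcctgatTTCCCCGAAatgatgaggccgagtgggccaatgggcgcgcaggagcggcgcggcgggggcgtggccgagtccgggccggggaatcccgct

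*Irf2*, chr8:46739495-46739744, plus strand: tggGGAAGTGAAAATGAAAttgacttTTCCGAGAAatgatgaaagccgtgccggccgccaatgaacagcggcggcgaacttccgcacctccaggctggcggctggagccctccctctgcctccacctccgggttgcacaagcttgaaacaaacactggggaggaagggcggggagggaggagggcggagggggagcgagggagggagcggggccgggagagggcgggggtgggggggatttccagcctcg

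*Irf7*, chr7:141266425-141266674, minus strand: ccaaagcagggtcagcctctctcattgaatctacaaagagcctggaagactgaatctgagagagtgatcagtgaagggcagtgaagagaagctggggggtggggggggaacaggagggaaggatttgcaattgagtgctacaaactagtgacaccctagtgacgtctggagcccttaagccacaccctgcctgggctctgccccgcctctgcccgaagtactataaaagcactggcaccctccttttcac

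*Irf8*, chr8:120736108-120736357, plus strand: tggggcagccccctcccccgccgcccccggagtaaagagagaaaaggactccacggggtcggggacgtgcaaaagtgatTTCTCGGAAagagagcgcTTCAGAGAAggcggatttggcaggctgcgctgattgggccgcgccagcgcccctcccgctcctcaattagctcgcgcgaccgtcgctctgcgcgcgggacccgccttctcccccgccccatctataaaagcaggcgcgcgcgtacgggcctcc

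*Irf9*, chr14:55603735-55603984, plus strand: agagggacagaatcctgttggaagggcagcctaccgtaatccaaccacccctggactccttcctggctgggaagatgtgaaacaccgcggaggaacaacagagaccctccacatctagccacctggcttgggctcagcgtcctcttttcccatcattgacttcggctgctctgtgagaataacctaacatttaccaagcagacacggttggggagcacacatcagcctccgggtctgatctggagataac

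The *Irf1* window held 1 GAS match, 90 to 82 bases before the start. The *Irf8* window held 2, from 171 to 163 and from 153 to 145 bases before it. In the *Irf2* window an ETS-IRF composite (bases 247 to 238) shared letters with an ISRE core (241 to 232), and a GAS match followed (224 to 216). No match lay in the windows of *Irf7* and *Irf9* shown, in the other windows of *Irf1*, *Irf8* and *Irf9*, or in those of *Irf3*, *Irf4*, *Irf5* and *Irf2bp2*. Among all 32851 windows of this length, 2.98% held the ISRE core, 7.02% the GAS element and 2.30% the composite. These are matches of letters only. Of the 3 members with a match, *Irf1* was lower, *Irf2* was higher and *Irf8* was not called.

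*Irf9* changed most. It lies on the plus strand of chromosome 14 from 55603571 to 55610030 (mm10, GENCODE M21). It had 668 and 753 counts in WT and 312 and 296 in KO, or 98.1 ± 6.73 and 43.6 ± 0.454 CPM (mean ± SD, n = 2 libraries each). Both KO libraries lay at less than any WT library. The *Irf9* log2 fold change was -1.17 (standard error 0.11, 95% interval -1.38 to -0.96, edgeR adjusted p = 5.09e-14), 2.25-fold lower. It was called in all 13 alternatives, at -1.25 to -0.92. Among all tested genes, including those with low counts, 50.2% changed by less in size, so this change ranks near the middle of them.

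*Irf7*, the factor of high interferon output that interferon itself raises, is a minus-strand gene (chromosome 7, 141262706 to 141266481). It had 124 and 117 counts in WT and 65 and 64 in KO, or 16.7 ± 0.952 and 9.26 ± 0.340 CPM. The libraries of the genotypes did not overlap. *Irf7* was 1.80-fold lower, with a log2 fold change of -0.85 (standard error 0.22, 95% interval -1.29 to -0.41, edgeR adjusted p = 0.000502). With a trend of the counts with exon length and GC content removed, the fall was -0.41 and was no longer called (edgeR adjusted p = 0.0799). Plasmacytoid dendritic cells carry B220 and much *Irf7*. Their 9 markers summed to 46.2 to 53.8 CPM in WT and 13.2 to 15.8 CPM in KO. This sum came from *Clec12a*, *Smim5* and *Ccr9* in WT and from *Clec12a* alone in KO, whereas *Siglech*, *Cox6a2*, *Klk1*, *Pacsin1*, *Lag3* and *Klra17* had 0 counts in every library. The part of these cells in the value of *Irf7* was not tested.

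*Irf3* and *Irf5*, the other factors below the sensors, were not called. *Irf3*, the factor present at rest in most cells (chromosome 7, 44997648 to 45002848, plus strand), had 158 and 187 counts in WT and 209 and 186 in KO, or 22.1, 25.6, 29.0 and 27.6 CPM. Its log2 fold change was 0.25 (standard error 0.16, 95% interval -0.06 to 0.56, edgeR adjusted p = 0.136). *Irf5*, which acts below Toll-like receptors (chromosome 6, 29526625 to 29541871, plus strand), had 197 and 167 against 206 and 207 counts, or 27.5, 22.8, 28.6 and 30.7 CPM. Its log2 fold change was 0.24 (standard error 0.15, 95% interval -0.07 to 0.54, edgeR adjusted p = 0.151). For both genes the KO libraries lay above the WT libraries, but the gap between the genotypes was no wider than that between the WT libraries. With the length and GC trend removed both were called higher, *Irf3* at 0.71 and *Irf5* at 0.67, and *Irf5* was also called without WT replicate 1, at 0.41.

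*Irf1* (chromosome 11, 53770014 to 53778374, plus strand) had 466 and 476 counts in WT and 291 and 332 in KO, or 65.1, 65.0, 40.4 and 49.3 CPM. The WT libraries were nearly equal, and both KO libraries were lower and farther apart. *Irf1* fell to 44.8 ± 6.30 CPM from 65.1 ± 0.071 CPM, a log2 fold change of -0.54 (standard error 0.11, 95% interval -0.77 to -0.31, edgeR adjusted p = 3.63e-05), 1.45-fold lower. Once that length and GC trend was taken out, it was -0.18 and was not called (edgeR adjusted p = 0.143).

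*Irf2*, its antagonist at shared sites (chromosome 8, 46739732 to 46847458, plus strand), had 335 and 328 counts in WT and 453 and 334 in KO, or 46.8, 44.8, 62.9 and 49.6 CPM. Only KO replicate 1 stood well above the other 3 libraries. *Irf2* was called 1.23-fold higher, with a log2 fold change of 0.30 (standard error 0.12, 95% interval 0.06 to 0.54, edgeR adjusted p = 0.0207). Without KO replicate 1 the value was 0.11 and was not called (edgeR adjusted p = 0.463), nor was it called by library size alone, by DESeq2 or among genes of at least 1 CPM in all 4 libraries.

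*Irf2bp2* (chromosome 8, 126588296 to 126593986, minus strand) had 405 and 441 counts in WT and 357 and 390 in KO, or 56.6, 60.3, 49.6 and 57.9 CPM. The libraries overlapped. Its log2 fold change of -0.12 (standard error 0.11, 95% interval -0.35 to 0.10, edgeR adjusted p = 0.313) turned to 0.28 and was called higher when the length and GC trend was removed. The related genes *Irf2bp1* and *Irf2bpl*, which are not among the 9, had far fewer counts. *Irf2bp1* had 35 and 35 counts in WT and 0 in both KO libraries, and was at least 22.5-fold lower, taking 3 counts over the group as the limit. *Irf2bpl* had 20 and 36 counts against 0 and 0, and was at least 18.0-fold lower by the same limit.

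*Irf4* (chromosome 13, 30749226 to 30766976, plus strand), needed for plasma cells and germinal centres, had 301 and 374 counts in WT and 440 and 373 in KO, or 42.1, 51.1, 61.1 and 55.4 CPM. The genotypes did not overlap, but the step from the higher WT library to the lower KO library was smaller than the gap within either genotype. *Irf4* was called 1.25-fold higher, with a log2 fold change of 0.32 (standard error 0.12, 95% interval 0.09 to 0.56, edgeR adjusted p = 0.0110). The call was lost without WT replicate 1 (0.22), without KO replicate 1 (0.25), by library size alone (0.24, a fold change under 1.2) and by DESeq2 (0.34, DESeq2 adjusted p = 0.0829).

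*Irf8* (chromosome 8, 120736358 to 120756694, plus strand), which *Irf4* opposes in germinal centre cells, had 121 and 106 counts in WT and 108 and 129 in KO, or 16.9, 14.5, 14.99 and 19.2 CPM. The genotypes overlapped. The log2 fold change of *Irf8* was 0.12 (standard error 0.20, 95% interval -0.28 to 0.51, edgeR adjusted p = 0.583), and without KO replicate 2 it was -0.06. *Irf8* was called under none of the 13 alternatives.

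**Figure D2:**
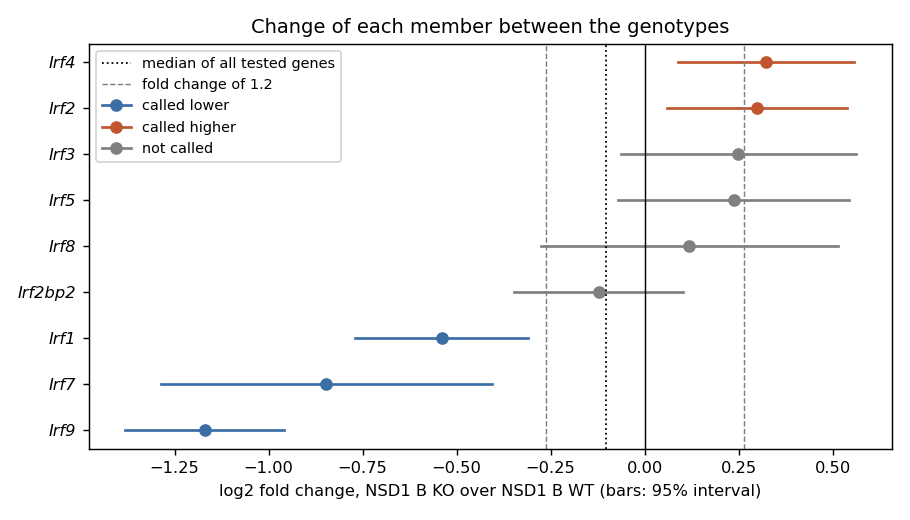
Difference in log2 level, KO minus WT, for each member (point) with its 95% interval (bar), from edgeR. Dashed lines mark a fold change of 1.2 and the dotted line the median of all tested genes (-0.10). *Irf1*, *Irf7* and *Irf9* lie left of the lower line with their whole interval, while the intervals of *Irf2* and *Irf4* cross the upper line.

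Compared per kilobase of annotated exon, the order of the members differed between the genotypes. In WT, *Irf9* was first at 18.2 ± 1.25 CPM per kb, followed by *Irf1* at 16.4 ± 0.018, *Irf2bp2* at 11.5 ± 0.507, *Irf4* at 9.50 ± 1.30, *Irf5* at 8.67 ± 1.15, *Irf3* at 6.92 ± 0.712, *Irf2* at 6.20 ± 0.192, *Irf7* at 4.41 ± 0.252 and *Irf8* at 2.23 ± 0.244 (mean ± SD, n = 2). Of these neighbours in the order, *Irf4* and *Irf5* overlapped between libraries and the other pairs did not. In KO, *Irf4* was first at 11.9 ± 0.821 CPM per kb, but *Irf4*, *Irf1* (11.3 ± 1.58), *Irf2bp2* (10.6 ± 1.16) and *Irf5* (10.2 ± 0.521) overlapped in turn. *Irf9* stood in sixth place at 8.10 ± 0.084, overlapping with *Irf3* (8.23 ± 0.286) and *Irf2* (7.60 ± 1.27). *Irf7* (2.45 ± 0.090) and *Irf8* (2.42 ± 0.417) were last and overlapped. Exon length was taken over all annotated transcripts, which lowers genes with long minor transcripts.

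Ratios of counts within a library do not depend on how libraries are scaled. The ratio of *Irf2* to *Irf1* counts was 0.719 and 0.689 in WT and 1.56 and 1.01 in KO. That of *Irf5* to *Irf7* was 1.59 and 1.43 against 3.17 and 3.23, and that of *Irf3* to *Irf7* was 1.27 and 1.60 against 3.22 and 2.91. All of these were apart between the genotypes. Each sets a member with KO above WT over a member called lower. Their separation therefore follows from the values of the members given above. The ratio of *Irf9* to *Irf1* was 1.43 and 1.58 in WT and 1.07 and 0.892 in KO. That of *Irf9* to *Irf7* was 5.39 and 6.44 against 4.8 and 4.625. The ratio of *Irf4* to *Irf8* counts, at 2.49 and 3.53 in WT and 4.07 and 2.89 in KO, overlapped. No test was made on these ratios. An exact test of 2 libraries against 2 cannot give a two-sided p below 0.333.

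The exons of 6 members share bases with another gene, and the strand setting of the counts is not given in the sources used here. *Irf3* shares 88 bp with *Bcl2l12* on the other strand, which had 197 and 161 counts in WT and 3 and 1 in KO. *Irf7* shares 45 bp with *Phrf1*, which fell from 286 and 302 counts to 34 and 28 (log2 fold change -3.19, standard error 0.20, edgeR adjusted p = 1.92e-19). *Irf9* shares 123 bp with *Rnf31* on its own strand, at 48 and 62 against 71 and 61 counts. *Irf5* shares 411 bp with *Tnpo3*, *Irf2bp2* 1039 bp with the antisense gene Gm26759 and *Irf1* 135 bp with Gm17334. None of *Rnf31*, *Tnpo3* and Gm26759 was called, and Gm17334 was too low to test. The part of these shared bases in the values of the members was not tested.

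The genes most like a member in profile were found among 6786 protein-coding genes by the distance between log2 CPM over the 4 libraries, each centred on its mean. For *Irf9* they were *Usp33* (log2 fold change -1.18), *Acss1* (-1.19) and *Tcta* (-1.22), at distances of 0.032 to 0.054. For *Irf4* they were *Cir1* (0.32), *Rnf31* (0.32) and *Patl1* (0.31), at 0.037 to 0.042. For each of the 2 members, 20 genes lay within a distance of 0.1, and none of these 3 neighbours of *Irf4* was called. With 4 libraries such likeness is only a description.

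The genes around the IRFs were described with 7 lists of receptors, sensors, partners and targets. Together the lists held 122 tested genes, of which 49 were higher and 52 lower in KO (82.8%), beside 78.2% of all tested genes, and their median log2 fold change was 0.04. With the length and GC trend removed, 57 of the 122 were higher and 44 lower.

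Among 12 tested genes of the interferon receptors and their JAK-STAT pathway, 6 were higher and 3 lower (75%, median log2 fold change 0.25). *Stat2*, whose product joins IRF9 in ISGF3, was not called, at 14.1 and 12.8 CPM in WT and 11.9 and 11.0 CPM in KO (log2 fold change -0.23, standard error 0.22, edgeR adjusted p = 0.329). The chains of the type I receptor went apart, with *Ifnar1* 4.90-fold lower (29.2 and 25.7 against 5.97 and 5.20 CPM) and *Ifnar2* 1.61-fold higher (16.5 and 15.4 against 23.2 and 28.2 CPM). *Ifngr1*, the ligand-binding chain for interferon gamma, rose from 69.8 and 70.6 CPM to 310 and 308 CPM. Of the kinases, *Tyk2* was 1.82-fold and *Jak2* 1.35-fold higher, the latter at 64.7 and 62.0 against 83.8 and 86.9 CPM, and *Jak1* was not called. Of the brakes on the pathway, *Usp18* was 3.16-fold higher, *Pias1* was 3.12-fold lower, and *Socs3* had 56 and 56 counts in WT and 0 in KO.

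**Figure D3:**
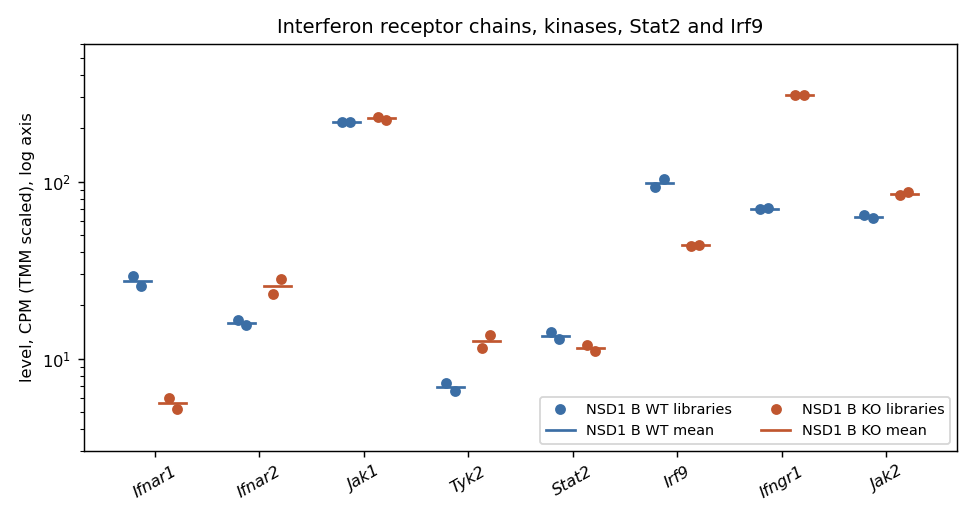
Level in CPM (log axis) of interferon receptor chains, their kinases, *Stat2* and *Irf9* in each library, with points for libraries (2 per genotype) and lines for means. *Ifngr1* lies higher and *Irf9* and *Ifnar1* lower in KO, while *Jak1* and *Stat2* were not called.

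Of 23 sensors and adaptors that lead to activation of IRF3, IRF5 and IRF7, 7 were higher and 12 lower (82.6%, median -0.52). *Irak1*, the kinase below MyD88, fell 7.21-fold from 285 and 384 counts to 41 and 48, and *Slc15a4*, an endolysosomal transporter needed for TLR7 and TLR9 signals, fell 7.60-fold. *Traf6*, the ubiquitin ligase that IRF7 and IRF5 are activated through, had 298 and 265 counts in WT and 0 in KO, at least 181-fold lower. *Tlr3* and *Ifih1*, sensors of double-stranded RNA, also had 0 counts in KO, from 148 and 140 and from 72 and 92. Higher genes included *Tbk1*, the kinase of IRF3, at 3.07-fold, *Traf3* at 5.34-fold and *Chuk*, a kinase of IRF7, at 4.18-fold. *Trim25* rose from 5 and 10 counts to 558 and 535, and *Cgas*, the sensor of cytosolic DNA, had 0 counts in WT and 76 and 76 in KO, at least 52.6-fold higher.

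Of 34 tested interferon-stimulated genes, the targets of ISGF3, 15 were higher and 13 lower (82.4%, median 0.20), and 18 and 10 without the length and GC trend. *Oas1a*, *Oas2* and *Cmpk2* had 0 counts in both WT libraries and 218 and 156, 53 and 72, and 246 and 220 in KO. *Mx2* had 0 and 7 counts against 120 and 112. On the other side, *Irgm1* and *Gbp7*, interferon-inducible GTPases, fell 3.67-fold and 3.82-fold, and *Oasl2* fell 7.93-fold. *Ifit3* had 160 and 175 counts in WT and 0 in KO, and its near-identical copy *Ifit3b* had 0 and 1 against 228 and 203. How reads were assigned between these copies was not tested, and both values are uncertain.

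Of 13 tested targets of *Irf1* in antigen presentation and immunity, 5 were higher and 5 lower (76.9%, median 0.03), and with the length and GC trend taken out, where *Irf1* was not called, 6 were higher and 2 lower. *Psmb9*, *Psmb10*, *Tap1* and *Tap2*, of the immunoproteasome and the peptide transporter, were lower, by 1.41-, 1.46-, 2.30- and 1.76-fold. *Psmb8*, also of the immunoproteasome, was not called, at 619 and 585 CPM in WT and 686 and 630 CPM in KO. *B2m* was 1.51-fold higher. *Tapbp*, *Casp1* and *Nlrc5* were higher, by 1.72-, 1.65- and 1.97-fold, and *Il15* had 0 counts in WT and 174 and 146 in KO. Of 13 co-factors and regulators of *Irf1* and *Irf2*, 6 were higher and 5 lower (84.6%, median 0.17). The acetyltransferases were split, with *Crebbp* and *Kat2b* higher by 1.58 and 0.78 on the log2 scale and *Ep300* 1.69-fold lower. *Stub1*, a ubiquitin ligase, was 2.80-fold lower, *Usp7* and *Nfatc1* were 1.60- and 2.45-fold higher, and *Vgll4* had 0 counts in WT and 94 and 68 in KO.

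Of 16 tested partners with which IRF4 and IRF8 bind DNA or act, 7 were higher and 8 lower (93.8%, median -0.14). *Spi1*, the gene of PU.1, rose 2.68-fold from 130 and 120 to 347 and 300 counts. *Spib*, the gene of SpiB, fell 1.30-fold from 497 and 453 to 347 and 355 counts. *Batf*, the AP-1 partner of IRF4, had 153 and 130 counts in WT and 0 in KO, at least 90.9-fold lower. *Tcf3*, the gene of E2A, was 7.88-fold lower, and *Tcf4* was 1.45-fold higher. *Fkbp4* and *Def6*, whose products bind IRF4, were 11.1- and 3.79-fold higher, and *Swap70*, the relative of *Def6*, was 2.60-fold lower. Of 15 targets of *Irf4* and *Irf8* in B cells, 4 were higher and 7 lower (73.3%, median -0.16). *Bcl6*, the germinal centre repressor, rose 3.04-fold from 34 and 35 to 112 and 91 counts, and *Bach2* and *Ebf1* rose 1.81- and 1.68-fold. *Pax5*, *Ikzf3* and *Mdm2* were 9.76-, 3.22- and 2.44-fold lower. *Ikzf1*, which was not called, *Ikzf3* and *Bcl6* stand in both of these lists.

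**Figure D4:**
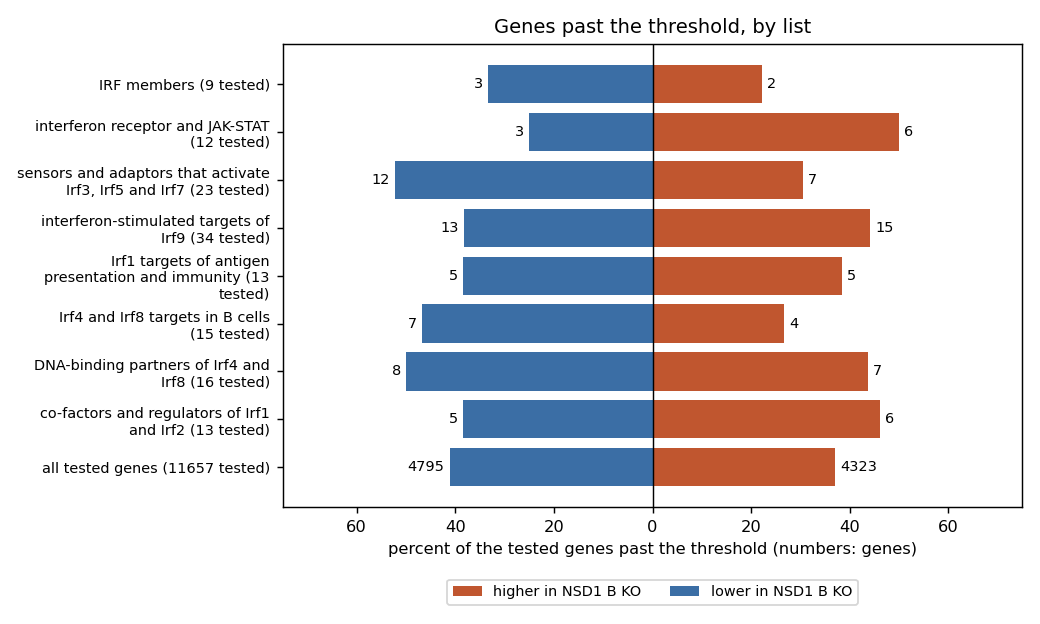
Percent of tested genes past the threshold, to the right when higher and to the left when lower in KO, for the 9 members, the 7 lists and all tested genes, with the numbers of genes at the bars. Calls went in both directions in every list, and the 9 members had 3 lower and 2 higher.

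The length and GC trend moved the members by different amounts. Removing the length and GC trend raised the median of all tested genes by 0.20 on the log2 scale, to 0.10. Relative to the median of all genes, *Irf9* was at -1.07 as reported and -1.02 with this trend removed, *Irf7* at -0.74 and -0.50, *Irf1* at -0.44 and -0.27, *Irf4* at 0.42 and 0.35, *Irf2* at 0.40 and 0.25, *Irf3* at 0.35 and 0.62, *Irf5* at 0.34 and 0.57, and *Irf8* at 0.22 and 0.28. *Irf2bp2* went from -0.02 to 0.18. The 3 lower members kept a negative sign under every alternative run.

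**Figure D5:**
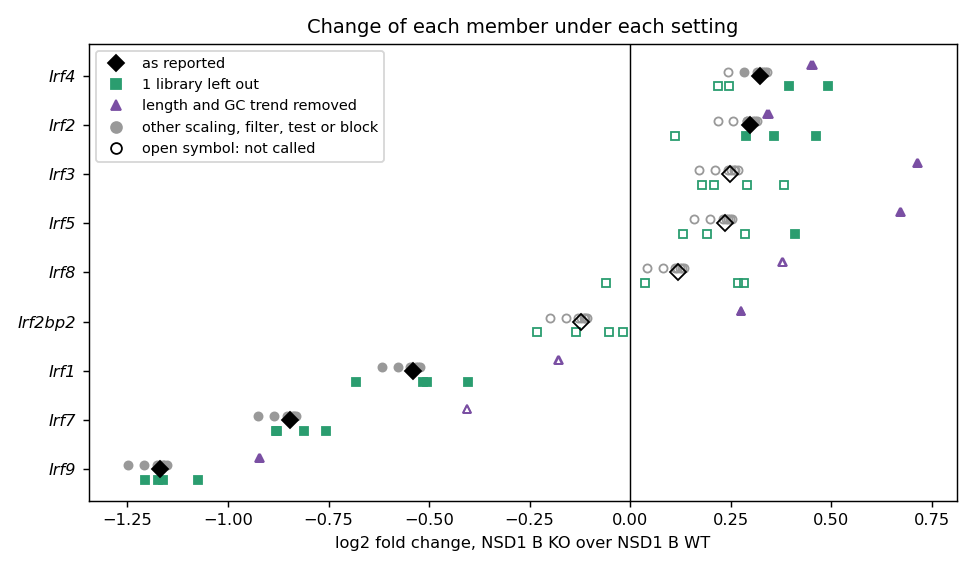
Log2 fold change of each member as reported (diamond), with each library left out (squares), with the length and GC trend removed (triangles) and under the other alternatives (circles). Filled symbols were called and open symbols were not. Every symbol of *Irf9* is filled, between -1.25 and -0.92, and *Irf2bp2* and *Irf8* have symbols on both sides of 0.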

How the data were processed

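Gene expression was measured by RNA-seq in 4 libraries of splenic B220+ cells, grouped by their titles. The authors deposited raw counts per gene, 1 library per file. Their methods describe paired-end reads mapped to mm10 with Bowtie2 and FPKM from Cufflinks, which were not used here. How reads were counted per gene, on which strand and with which annotation is not given in the sources used here. Counting without strand can mix overlapping genes, and short or GC-rich genes can shift between libraries. Reads on no gene (44.3% to 44.6% of the counted reads), ambiguous reads (2.21% to 2.41%) and reads that were not unique (11.2% to 13.2%) stayed out of library sizes.

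Counts were tested with edgeR 4.0.16 in R 4.3.3 (TMM, filterByExpr at its defaults of 10 counts and 15 in total, quasi-likelihood test, Benjamini-Hochberg adjustment) on all genes. The limits of fold change 1.2 and 0.05 follow the study's methods, with p taken as adjusted. Standard errors are the log2 fold change over the square root of F. Of the gene identifiers, 99.5% matched GENCODE M21. A gene at 0 in a genotype was given 3 counts over the group (0.207 CPM in WT, 0.215 in KO), for counting error only. Alternatives were the size factors and the Wald test of DESeq2 1.42.0, library size alone, 2 other filters, immunoglobulin genes left out, each library left out, the replicate number as a block, a loess trend (span 0.5) with exon length and GC content removed (known for 99.9% of tested genes) with and without the block, and stricter limits. In simulated data with 200 changed genes and 11328 tested, the procedure recovered 159 of them and made 2 false calls. Far fewer genes changed there than were called here, so it cannot test the scaling of these libraries.

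The members, lists and tests were chosen with earlier results of these data known. Genes named are the members and their relatives, from each list up to 4 of the largest called increases and decreases among genes whose mean log2 CPM reached 3 and genes at 0 in a genotype with at least 50 counts over the other, markers, overlapping and neighbouring genes, and the 3 genes nearest in profile to the members with the largest increase and decrease. *Ifnar2*, *Jak1*, *Jak2*, *Stat2*, *Ikzf1*, *Spib*, *Tcf4*, *Psmb8* and *B2m* were chosen after their values were seen. Some genes that this rule names are not reported here. Figures used matplotlib 3.10.9.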

Additional observations from a re-analysis of the deposited data

How the results depend on the processing

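As reported, 5 members were called. Only 3 were called by library size alone and 3 by the DESeq2 Wald test (*Irf1*, *Irf7*, *Irf9* in both), and 1 (*Irf9*) at stricter limits (adjusted p under 1e-05, log2 change over 0.5 in size). Over all tested genes, 9150 of 11657 were called by library size alone, 8681 of 13546 by DESeq2 and 6665 of 11657 at the stricter limits. With each library left out in turn, 3 to 5 were called, 3 without KO replicate 1. With the length and GC trend removed 6 were called, 5 higher and 1 lower, where *Irf2bp2* reversed to 0.28 (also 0.28 with the replicate block). Over all 11657 tested genes, 4816 were then higher and 4214 lower. *Irf8* was between -0.0598 and 0.284 with each library left out, below 0 without KO replicate 2. Among genes of at least 1 CPM in all 4 libraries, where fewer genes were tested, the called genes went from 19 to 12 among the sensors and adaptors, from 28 to 18 among the interferon-stimulated genes, from 11 to 6 among the co-factors, and from 9118 to 5846 over all genes. The replicate block left 5 members called and changed no call of a member. Deviations of libraries with the same number correlated at 0.077 over genes, and nothing in the labels pairs them. The cause of each shift was not tested, other than where fewer genes were tested. Depth limits *Irf7* and *Irf8* most, at 64 to 129 counts a library.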

Other observations

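The nearest protein-coding genes that do not overlap a member, on either side of the 9, made 18 neighbours, of which 8 could be tested. Overlapping genes, such as *Bcl2l12* and *Phrf1* described above, were passed over. Of the tested neighbours, 3 were higher and 1 was lower, beside 37.1% higher and 41.1% lower among all tested genes. *Tarbp1* and *Tomm20*, which flank *Irf2bp2*, rose by 1.64 and 0.64 on the log2 scale while *Irf2bp2* itself was not called. *Scaf1*, next to *Irf3*, rose from 8 and 7 counts to 19 and 23. Gm12216, next to *Irf1*, had 120 and 109 counts in WT and 0 in both KO libraries. *Dusp22* and *Exoc2*, on either side of *Irf4*, *Cox4i1* beside *Irf8* and *Psme2* beside *Irf9* were not called. *Psme2* missed only the limit on size, at 657 and 712 CPM in WT and 855 and 787 in KO (edgeR adjusted p = 0.00201).

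Of the neighbours, 7 had 0 counts in every library.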
